A study of Mus musculus with 8 samples.

Results

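The insulin-like growth factor 1 gene Igf1, its receptor gene Igf1r and the 7 IGF binding protein genes Igfbp1, Igfbp2, Igfbp3, Igfbp4, Igfbp5, Igfbp6 and Igfbp7 were followed through retinoic acid differentiation of wild-type and Htt-null mouse embryonic stem cells. The 9 genes were taken by symbol from the RNA-seq count table, which lists 32567 genes, and all 9 were found there. A mean log2 CPM above 0, taken here over the 4 libraries, served as the expression limit. The study's methods set the same value without stating the libraries it covers. The limit was reached by 15492 genes of the table and by 7 of the 9. Igfbp1 and Igfbp6 stayed below it.

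Embryonic stem cells (ESC) came from a wild-type parental line and from a second line that carries the Hdh ex4/5 null allele on both copies of the huntingtin gene (Htt-null). The strain of the lines and the number of clones behind each are not given in the sources used here. The differentiated cells (RA-DIFF) were obtained from both lines, which had been kept without feeder cells for 4 passages, by embryoid body culture over 8 days with 5 µM retinoic acid from day 4. Embryoid bodies were then dissociated and plated, and the cells were collected shortly afterwards. Each of the 4 conditions has 1 RNA-seq library and 1 small RNA library, so no difference below has a replicate check and no p-value is given.

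The count totals of the RNA-seq libraries lay between 63617410 and 110569127. Levels are given as CPM, read counts relative to the library's size, scaled with TMM factors that correct for library composition. Intervals are 95% intervals of the counts. They cover counting error only, not variation between libraries, and are too narrow where PCR-amplified reads are not independent molecules. Htt itself was at 166 CPM in wild-type ESC and 111 CPM in Htt-null ESC, but at 73.3 CPM in the differentiated library labelled wild type and 98.7 CPM in the one labelled Htt-null, so in RA-DIFF it ran against the labels. In the readable part of the study's supplementary expression table, the values given for wild-type RA-DIFF cells also belong to the deposited column labelled Htt-null, and the reverse. The RA-DIFF libraries are therefore named by their deposited labels. If the labels are exchanged, every RA-DIFF difference between genotypes keeps its size and turns its sign, and the RA-DIFF over ESC ratios change as well, since each ESC library is then set against the other RA-DIFF library. Pluripotency genes, 7 of them summed, stood at 5021 CPM in wild-type ESC and 4298 CPM in Htt-null ESC, against 54.2 CPM and 13.2 CPM in the RA-DIFF libraries labelled wild type and Htt-null.

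IGF1 is a secreted growth factor that signals through the receptor tyrosine kinase IGF1R, and from there through IRS adaptors to PI3K, AKT and mTOR. The binding proteins IGFBP1 to IGFBP6 hold IGF1 and IGF2 in the extracellular space with high affinity, and can restrain or prolong IGF action depending on their cleavage by proteases and their binding to the matrix. IGFBP7 carries the same type of amino-terminal domain but binds IGFs weakly. In the embryo the system sets growth, and mesenchymal cells are a common source of several binding proteins.

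**Figure D1:**
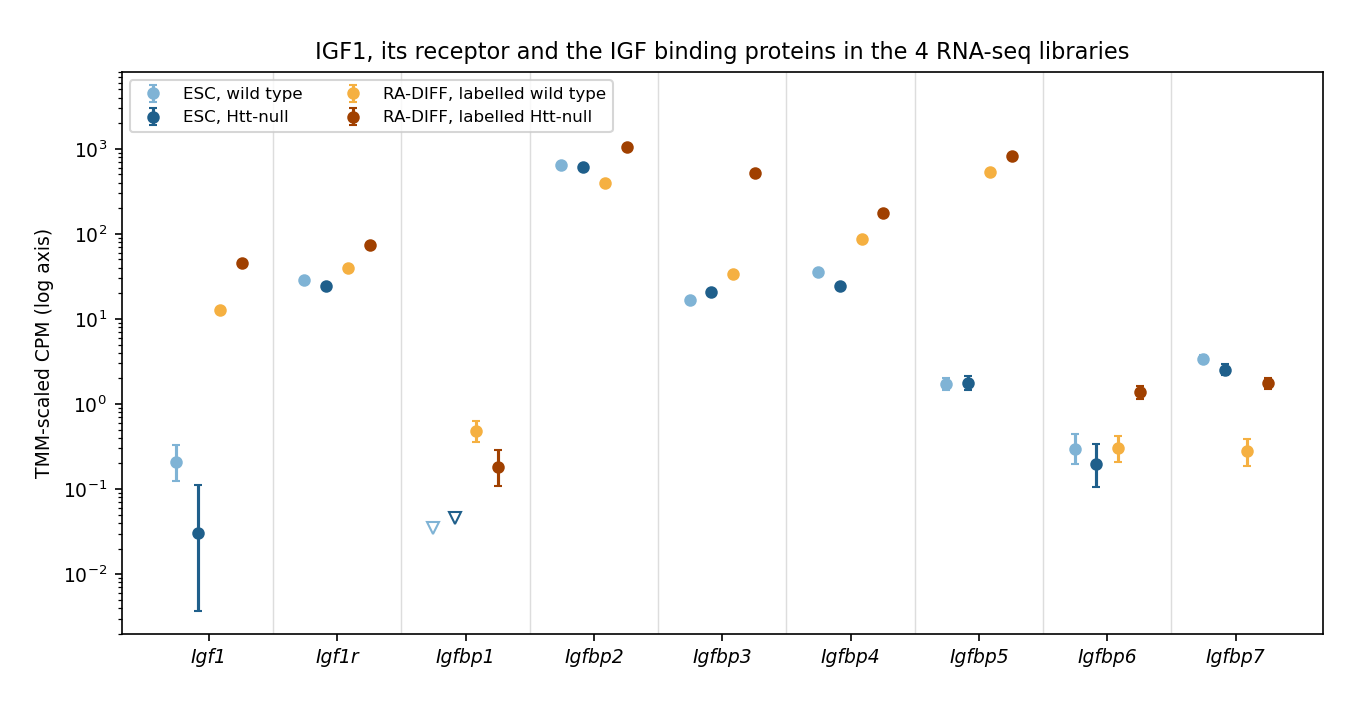
Level of each of the 9 genes in the 4 RNA-seq libraries, as TMM-scaled CPM on a log axis. Points are single libraries, bars are exact Poisson 95% intervals of the count, and open triangles mark a count of 0 at the level that 3 counts would give. Igf1 and Igfbp5 are far higher in both RA-DIFF libraries than in ESC, while Igfbp2 is high in all 4.

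Igf1, the ligand (ENSMUSG00000020053, chromosome 10 of GRCm38 from 87858265 to 87937042, plus strand), was nearly silent in ESC. It had 18 reads in wild-type ESC, 2 in Htt-null ESC, 1424 in the differentiated library labelled wild type and 4478 in the one labelled Htt-null. These are 0.208, 0.0307, 12.7 and 45.5 CPM. Both RA-DIFF libraries were thus well above both ESC libraries. RA-DIFF exceeded ESC by 5.94 on the log2 scale (interval 5.27 to 6.69) in cells labelled wild type and by 10.53 (8.68 to 13.58) in cells labelled Htt-null, the second value resting on 2 reads in ESC. Between genotypes, Htt-null over wild type, the log2 ratio stood at -2.76 in ESC, with a counting interval from -5.91 to -0.70, and 1.84 (1.75 to 1.93) in RA-DIFF by the labels. The antisense gene Igf1os overlaps Igf1 over 5117 bp and had at most 7 reads in a library.

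Igf1r (ENSMUSG00000005533, chromosome 7 from 67952859 to 68226780, plus strand) encodes the receptor for IGF1 and IGF2. Its reads numbered 2519 in wild-type ESC, 1611 in Htt-null ESC, 4510 in the differentiated library labelled wild type and 7299 in the one labelled Htt-null, that is 29.0, 24.7, 40.2 and 74.1 CPM. The receptor was therefore present at both stages and varied within a far smaller range than its ligand. The log2 ratio of RA-DIFF over ESC was 0.47 (0.40 to 0.54) in cells labelled wild type, under the fold limit of 0.75 that the study's methods set, and 1.59 (1.51 to 1.66) in cells labelled Htt-null. Htt-null over wild type gave -0.23 (-0.33 to -0.14) in ESC and 0.88 (0.83 to 0.93) in RA-DIFF.

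The promoter of the receptor gene is rich in CpG, with 48 CpG in its window of 300 bases (250 before to 50 after the RefSeq start) against a median of 7 over 32851 such windows. It is shown because it is among the 2 members' promoters, with that of Igf1, that hold a retinoic acid receptor half-site, AGGTCA on either strand, which 16.3% of all windows hold. Capitals mark this half-site and the GC box GGGCGG on either strand, the latter found in 35.7% of windows. The half-site begins at -86 from the start in Igf1r and at -161 in Igf1. A match is a stretch of letters and does not show binding. The 250 bases before the start of Igf1r, chr7:67952007-67952256 of GRCm38.p6 on the plus strand, read as follows.
Igf1r: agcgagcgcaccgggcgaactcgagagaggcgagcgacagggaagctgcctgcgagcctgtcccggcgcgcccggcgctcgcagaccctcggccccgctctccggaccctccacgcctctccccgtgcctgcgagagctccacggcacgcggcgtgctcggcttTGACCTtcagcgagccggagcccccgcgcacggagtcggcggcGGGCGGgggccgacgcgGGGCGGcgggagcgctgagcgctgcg

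Among the binding proteins, Igfbp2 (ENSMUSG00000039323, chromosome 1 from 72824503 to 72852474, plus strand) was the most abundant per kilobase of exon in every library, while by reads and CPM Igfbp5 exceeded it in RA-DIFF labelled wild type. Igfbp2 had 55368 reads in wild-type ESC, 39407 in Htt-null ESC, 44007 in the differentiated library labelled wild type and 102881 in the one labelled Htt-null. These are 638, 604, 393 and 1045 CPM, so that the ESC libraries lay between the RA-DIFF libraries. RA-DIFF over ESC was -0.70 in cells labelled wild type (-0.72 to -0.68) and 0.79 (0.77 to 0.81) in cells labelled Htt-null, values of opposite sign close to the fold limit. The first became -0.75, just past the limit, with median-of-ratios factors in place of TMM, and the second became 0.72, short of it, with library size alone. In ESC the genotypes differed by -0.08 (-0.10 to -0.06), and in RA-DIFF by 1.41 (1.40 to 1.43).

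Igfbp5 (ENSMUSG00000026185, chromosome 1 from 72857932 to 72874884, minus strand) lies tail to tail with Igfbp2, 5457 bp away. Its protein binds to the extracellular matrix and is made by mesenchymal and neural cells. It had 150 reads in wild-type ESC and 115 in Htt-null ESC, against 59973 in the differentiated library labelled wild type and 81162 in the one labelled Htt-null, or 1.73, 1.76, 535 and 824 CPM. This was the largest difference between the stages among the 7 members that passed the expression limit in cells labelled wild type, with a log2 ratio of 8.27 (8.04 to 8.51), and the value was 8.87 (8.61 to 9.15) in cells labelled Htt-null. The genotypes were within counting error in ESC, at 0.03 (-0.34 to 0.39), and differed by 0.62 (0.61 to 0.64) in RA-DIFF, under the limit. Its neighbour Igfbp2 did not share a difference of this size, with -0.70 and 0.79 in cells labelled wild type and Htt-null.

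Igfbp3 (ENSMUSG00000020427, chromosome 11 from 7206086 to 7213923, minus strand) encodes the main IGF carrier of the blood, which also acts in tissues. Its reads were 1444 in wild-type ESC, 1345 in Htt-null ESC, 3803 in the differentiated library labelled wild type and 51107 in the one labelled Htt-null. The levels were 16.7, 20.6, 33.9 and 519 CPM, and the library labelled Htt-null stood apart from the other 3. Of the 7 members above the expression limit it had the largest difference between the RA-DIFF libraries, a log2 ratio of 3.93 (3.89 to 3.98) or 15.3-fold. In ESC the ratio was 0.31 (0.20 to 0.42). RA-DIFF exceeded ESC by 1.03 (0.94 to 1.12) in cells labelled wild type and by 4.65 (4.58 to 4.73) in cells labelled Htt-null.

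The upstream sequences of these 3 genes are shown because Igfbp2 was the most abundant member per kilobase of exon, Igfbp5 had the largest difference between stages in cells labelled wild type and Igfbp3 the largest between the RA-DIFF libraries. Capitals mark the GC box GGGCGG on either strand. The GC box occurs 3 times in the window of Igfbp2 and in none of the windows of Igfbp3 and Igfbp5. Neither AGGTCA nor the TATA box TATAAA is found in any of the 3. Only exact matches on either strand were sought, so variants of these motifs are not marked. Each sequence holds the 250 bases before a RefSeq start on GRCm38.p6, written in the direction of the gene: chr1:72824230-72824479 on the plus strand for Igfbp2, chr11:7213924-7214173 on the minus strand for Igfbp3 and chr1:72874866-72875115 on the minus strand for Igfbp5.
Igfbp2: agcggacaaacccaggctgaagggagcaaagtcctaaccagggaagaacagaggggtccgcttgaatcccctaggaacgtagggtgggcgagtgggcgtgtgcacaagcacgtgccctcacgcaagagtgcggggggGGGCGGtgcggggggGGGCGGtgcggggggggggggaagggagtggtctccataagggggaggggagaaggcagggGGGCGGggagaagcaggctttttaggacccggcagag
Igfbp3: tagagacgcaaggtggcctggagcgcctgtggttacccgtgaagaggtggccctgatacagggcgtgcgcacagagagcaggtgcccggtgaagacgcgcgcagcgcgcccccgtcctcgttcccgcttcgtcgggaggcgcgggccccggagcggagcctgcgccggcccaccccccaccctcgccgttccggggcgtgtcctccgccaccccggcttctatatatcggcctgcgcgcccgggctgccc
Igfbp5: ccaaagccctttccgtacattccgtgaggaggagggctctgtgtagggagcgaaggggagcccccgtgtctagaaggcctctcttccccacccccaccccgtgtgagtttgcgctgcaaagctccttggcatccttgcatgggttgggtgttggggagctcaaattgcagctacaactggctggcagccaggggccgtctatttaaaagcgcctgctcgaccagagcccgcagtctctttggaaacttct
The number of CpG per window of 300 bases was 18 for Igfbp2 at this start, 37 for Igfbp3 and 10 for Igfbp5. Over all 9 members and all their RefSeq starts, the GC box was found for Igf1r, Igfbp2 and Igfbp7. TATAAA was found for Igfbp4, where it begins at -28, and for Igfbp6, where the match begins at -148 and is on the opposite strand. TATAAA was present in 13.6% of all windows.

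Igfbp4 (ENSMUSG00000017493, chromosome 11 from 99041244 to 99054392, plus strand), whose protein is a target of the protease PAPP-A, had 3129 reads in wild-type ESC, 1576 in Htt-null ESC, 9721 in the differentiated library labelled wild type and 17550 in the one labelled Htt-null. At 36.1, 24.2, 86.8 and 178 CPM, both RA-DIFF libraries were above both ESC libraries. RA-DIFF exceeded ESC by 1.27 (1.21 to 1.32) in cells labelled wild type and by 2.88 (2.81 to 2.96) in cells labelled Htt-null. Between genotypes the ratio was -0.58 (-0.67 to -0.49) in ESC, under the fold limit, and 1.04 (1.00 to 1.07) in RA-DIFF. The 1223 expressed genes of chromosome 11, which carries Igfbp1, Igfbp3 and Igfbp4, had a median genotype log2 ratio of 0.22 in ESC, while the median over all expressed genes was -0.04. The chromosome's part in the ESC ratios of these genes was not tested.

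Igfbp7 (ENSMUSG00000036256, chromosome 5 from 77349240 to 77408041, minus strand), the low-affinity member, had 295 reads in wild-type ESC, 166 in Htt-null ESC, 31 in the differentiated library labelled wild type and 172 in the one labelled Htt-null. The levels of 3.40, 2.54, 0.277 and 1.75 CPM were all low, and both ESC libraries were above both RA-DIFF libraries. The log2 ratio of RA-DIFF over ESC was -3.62 (-4.20 to -3.08) in cells labelled wild type and -0.54 (-0.86 to -0.23) in cells labelled Htt-null. Igfbp7 alone among the expressed members was past the fold limit downward with differentiation, in cells labelled wild type. With the RA-DIFF labels exchanged it would be past the limit in both genotypes, at -0.96 in wild-type and -3.20 in Htt-null cells. Between genotypes its ratio was -0.42 (-0.70 to -0.14) in ESC and 2.66 (2.10 to 3.26) in RA-DIFF. It overlaps Polr2b by 85 bp on the other strand, and that gene had at least 15942 reads in every library. The study's methods name no strand option for the counting and state that programs ran with default settings unless specified.

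The remaining members were scarce. Igfbp6 (ENSMUSG00000023046, chromosome 15 from 102144362 to 102149511, plus strand), which prefers IGF2 over IGF1, had 26 reads in wild-type ESC, 13 in Htt-null ESC, 34 in the differentiated library labelled wild type and 136 in the one labelled Htt-null, or 0.300, 0.199, 0.303 and 1.38 CPM. The intervals of the first 3 levels overlapped, and the last was higher than the differentiated library labelled wild type by 2.19 on the log2 scale (1.64 to 2.77). Igfbp1 (ENSMUSG00000020429, chromosome 11 from 7197782 to 7202546, plus strand), known from liver and decidua, lies tail to tail with Igfbp3, 3539 bp away. It had no read in either ESC library, where 3 counts would be 0.0346 CPM in wild type and 0.0460 CPM in Htt-null cells, and 54 and 18 reads in the RA-DIFF libraries labelled wild type and Htt-null. Set against 3 counts in the ESC library, these were at least 13.9-fold and at least 3.97-fold higher, bounds that leave out the counting error of the RA-DIFF reads. The lower counting limits of the log2 ratios were 3.45 and 1.54. Igfbp1 was the single member with a lower level in the differentiated library labelled Htt-null, with a log2 ratio of -1.40 (-2.26 to -0.61).

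Levels of different genes were compared per kilobase of exon, using the exons of GENCODE vM21 inside the deposited gene bounds. On this scale Igfbp2 came first in every library, at 346 and 327 CPM per kb in wild-type and Htt-null ESC and at 213 and 566 in the RA-DIFF libraries labelled wild type and Htt-null. In wild-type ESC it was followed by Igfbp4 (8.17), Igfbp3 (5.32), Igf1r (2.94) and Igfbp7 (2.81), and in Htt-null ESC Igfbp3 (6.59) stood above Igfbp4 (5.47). In RA-DIFF labelled wild type the order after Igfbp2 was Igfbp5 (89.1), Igfbp4 (19.6), Igfbp3 (10.8), Igf1r (4.08) and Igf1 (1.28). In the library labelled Htt-null it was Igfbp3 (166), Igfbp5 (137), Igfbp4 (40.4), Igf1r (7.51) and Igf1 (4.59). The lower end was held by Igfbp1, Igfbp6 and Igfbp7, which were between 0.120 and 1.44 CPM per kb in RA-DIFF. Annotated exon length sets part of this order, since not every annotated exon need be used.

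**Figure D2:**
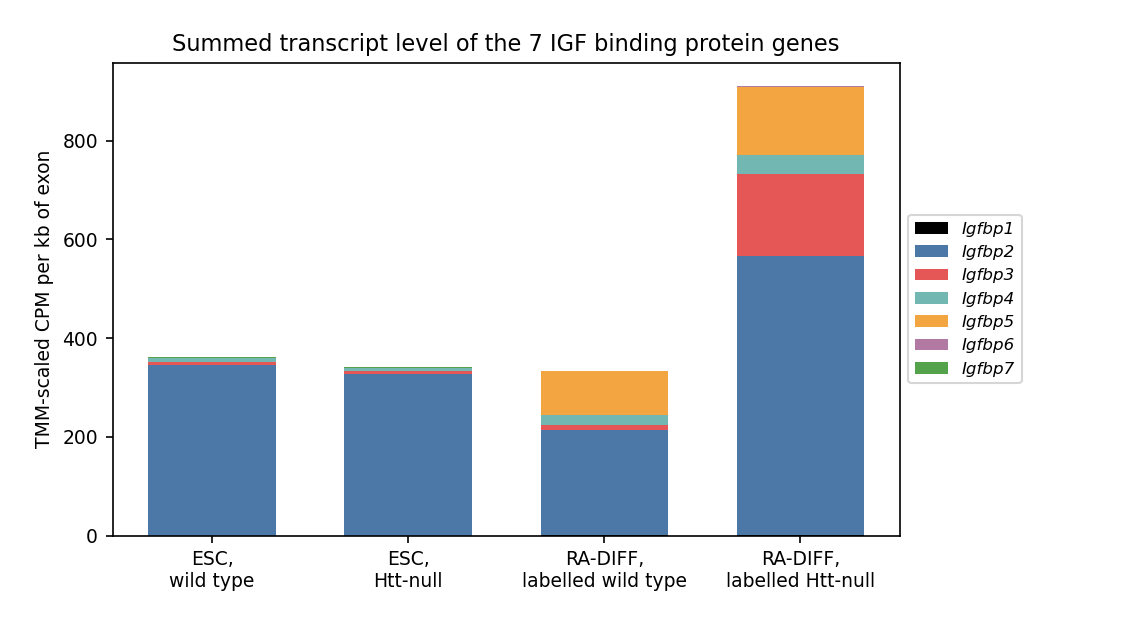
Summed level of the 7 binding protein genes in each RNA-seq library, in TMM-scaled CPM per kb of exon, with 1 stacked bar per library and 1 colour per gene. On this scale the sum is similar in both ESC libraries and in RA-DIFF labelled wild type, and higher in RA-DIFF labelled Htt-null, and the colours show Igfbp5 and Igfbp3 joining Igfbp2.

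Taken per length, the 7 binding protein genes summed to 363 CPM per kb in wild-type ESC, 342 in Htt-null ESC, 333 in RA-DIFF labelled wild type and 912 in RA-DIFF labelled Htt-null. Igfbp2 made up 95.3% and 95.7% of this sum in wild-type and Htt-null ESC, and 63.8% and 62.0% in the RA-DIFF libraries labelled wild type and Htt-null. Igfbp5 went from under 0.1% in both ESC libraries to 26.8% and 15.0%. Igfbp3 had 1.47% and 1.93% in ESC, then 3.26% in RA-DIFF labelled wild type and 18.2% in the one labelled Htt-null. The sum depends on the scale. Without division by length it was 697 and 653 CPM in wild-type and Htt-null ESC and 1049.7 and 2569 CPM in the RA-DIFF libraries labelled wild type and Htt-null, and the largest member in RA-DIFF labelled wild type was then Igfbp5. Per length, the RA-DIFF libraries had a like share of Igfbp2 and differed in which member came second.

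A gene was counted as past the limits when its log2 ratio exceeded 0.75 in size and its mean log2 CPM exceeded 0. Among the 7 members above the expression limit, RA-DIFF was higher than ESC for Igf1, Igfbp3, Igfbp4 and Igfbp5 and lower for Igfbp7 in cells labelled wild type, so that 4 were higher and 1 lower. Over all 15492 expressed genes, 34% were higher and 26.2% lower, 60.2% in either direction. Only 2 members were higher, and 1 lower, under an exact test at an assumed dispersion of 0.1, which is the criterion in the study's methods beside the fold and expression limits used here. The share of all genes under that test was not determined. For cells labelled Htt-null, 6 members were past the limit upward and 0 downward, the exception being Igfbp7, against 34.4% and 24.9% of all genes, or 59.2% in either direction. The median log2 ratio of the 7 members was 1.03 in cells labelled wild type and 2.88 in cells labelled Htt-null, beside 0.12 and 0.17 over all expressed genes. With the RA-DIFF labels exchanged, 5 members would be higher and 1 lower in wild-type cells, and 3 higher and 1 lower in Htt-null cells. Igf1 would then give 7.78 in wild-type and 8.70 in Htt-null cells, Igf1r 1.35 and 0.70, Igfbp4 2.30 and 1.84, Igfbp2 0.71 and -0.62, Igfbp3 4.96 and 0.72, and Igfbp6 2.20 and 0.61. These comparisons were made within a genotype and share libraries with those between genotypes.

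Between genotypes in ESC, Igf1 alone was past the limits, on the lower side, with 20 reads in both libraries together. It passed the expression limit only through its RA-DIFF levels. In this comparison 5.45% of all genes were higher and 3.77% lower, or 9.22% in either direction. The median of the 7 members was -0.23, and that of all genes -0.04. Between the RA-DIFF libraries, 6 of the 7 had higher levels under the label Htt-null and none was lower, with Igfbp5 the member that stayed under the fold limit. The count was 4 under the same exact test and 5 at a fold limit of 1. At the fold limit of 0.75, 11.9% of all genes were higher and 9.35% lower between the RA-DIFF libraries, or 21.3% in either direction. Shares of all genes under the other criteria were not determined. The median log2 ratio was 1.41 for the members and -0.01 for all genes. With the labels exchanged, these 6 members would be lower in Htt-null cells.

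Cell type markers differed between the same RA-DIFF libraries. All 12 genes of a fibroblast and mesenchyme list, which includes collagens and contractile genes, were past the limits upward under the label Htt-null, and the list's median log2 ratio was 1.91. Their summed level was 710 CPM in RA-DIFF labelled wild type and 2699.95 CPM in the one labelled Htt-null, against 71.4 CPM in wild-type ESC and 47.5 CPM in Htt-null ESC. In ESC 7 of the 12 were past the limits downward in the Htt-null library and 1, Lum with a single read, was past them upward. Dcn, Lum and Postn were under 1 CPM in both ESC libraries and passed the expression limit only through their RA-DIFF levels. Of the defining genes, Dcn was at 10 and 0 reads and Lum at 0 and 1 read in wild-type and Htt-null ESC, and no gene of the list was at 0 in RA-DIFF.

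Neuron genes went the other way in RA-DIFF, with 8 of 11 past the limits downward and none upward under the label Htt-null. Their median was -1.18, with summed levels of 3017 CPM (labelled wild type) and 1430.39 CPM (labelled Htt-null). The counts that follow are also of genes past the limits. Of 7 neural progenitor genes 3 were lower and none higher, with sums of 2561 and 2542 CPM. Of 6 expressed endothelial genes 3 were higher and 1 lower, with sums of 25.9 and 89.9 CPM over all 8 listed. Among 5 expressed genes of primitive and visceral endoderm 1 was higher, with sums of 23.2 and 57.7 CPM over all 9 listed, and of 7 pluripotency genes 6 were lower. The part of cell type makeup in the differences of the IGF genes was not tested. In these bulk libraries, more cells of a type and more RNA per cell cannot be told apart.

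**Figure D3:**
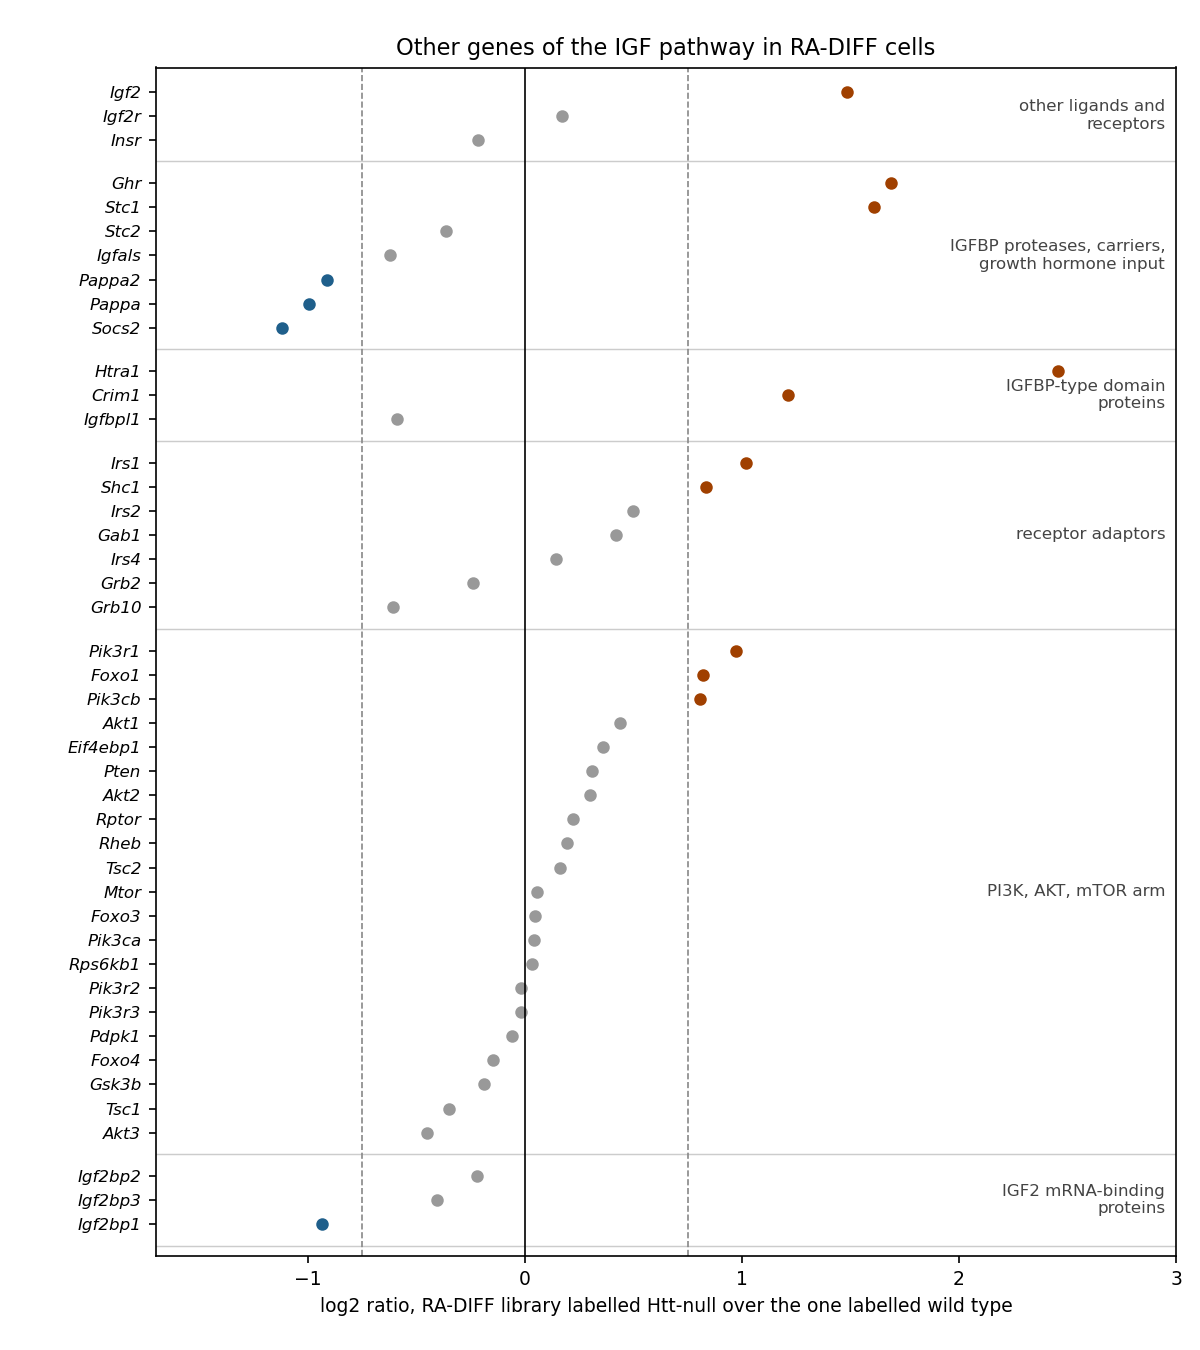
Log2 ratio between the RA-DIFF libraries, Htt-null over wild type as labelled, for 44 other genes of the IGF pathway, 1 point per gene, grouped by role. Dashed lines mark the fold limit of 0.75, brown points are past it upward and blue points downward. Of these genes 10 are past the limit on the right and 4 on the left.

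The rest of the pathway was read from 6 lists with 49 genes in the table, of which 44 passed the expression limit. Between the RA-DIFF libraries 10 of the 44 were past the limits upward and 4 downward under the label Htt-null, with a median of 0.05. Of all expressed genes 11.9% were higher and 9.35% lower there, so that the lower count was near the background share. With differentiation 19 were higher and 12 lower in cells labelled wild type, and 18 and 10 in cells labelled Htt-null. Over all expressed genes 34% were higher and 26.2% lower in cells labelled wild type, and 34.4% and 24.9% in cells labelled Htt-null, and the lower counts of the list were close to these shares. In ESC the genotypes differed past the limits for 4 genes, all lower in the Htt-null library: Stc1 (-0.90), Ghr (-0.76), Htra1 (-1.19) and Grb10 (-1.46), the last an adaptor that dampens receptor signalling. With library size alone 3 were lower. Over all expressed genes 5.45% were higher and 3.77% lower in this comparison.

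Igf2, the other ligand of IGF1R, was higher than Igf1 in every library per length, at 0.389, 0.351, 27.6 and 77.2 CPM per kb in wild-type ESC, Htt-null ESC and the RA-DIFF libraries labelled wild type and Htt-null. Its log2 ratio between the RA-DIFF libraries was 1.48, next to 1.84 for Igf1. The insulin receptor gene Insr was higher in RA-DIFF than in ESC, by 1.79 and 1.36 in cells labelled wild type and Htt-null, and its RA-DIFF genotype ratio was -0.21. Igf2r, whose product clears IGF2, had 0.17. Ins2 had at most 2 reads in a library, and Insrr was under the expression limit. Of the 3 genes of this list above the limit, 1 was therefore past the limits between the RA-DIFF libraries.

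Proteases and carriers that act on the binding proteins did not move as a block. Pappa, which encodes the protease that cleaves IGFBP4 and IGFBP5, had 25 reads in wild-type ESC, 18 in Htt-null ESC, 2616 in RA-DIFF labelled wild type and 1152 in RA-DIFF labelled Htt-null. It was higher after differentiation by 6.34 and 5.41 in cells labelled wild type and Htt-null, and differed between the RA-DIFF libraries, at 23.3 CPM (labelled wild type) and 11.7 CPM (labelled Htt-null). Its relative Pappa2 gave 4.97 and 4.16 with differentiation and -0.91 between the RA-DIFF libraries. The direction between genotypes was thus opposite to that of Igfbp4.

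Stc1, which encodes an inhibitor of PAPP-A, was higher in the differentiated library labelled Htt-null by 1.61, as was the growth hormone receptor gene Ghr by 1.69. With differentiation Stc1 gave 3.42 and 5.92 and Ghr 3.26 and 5.71 in cells labelled wild type and Htt-null. Socs2, a brake on growth hormone signalling, was lower there (-1.12) and also lower in RA-DIFF than in ESC, with -2.30 and -3.27. Igfals, the acid-labile subunit that joins circulating IGFBP3 complexes, had 409 and 285 reads in wild-type and Htt-null ESC and 7 and 4 in RA-DIFF, log2 ratios of -6.24 and -6.75. Of the 7 genes of this list, 2 were past the limits upward and 3 downward between the RA-DIFF libraries.

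Among proteins that share the IGFBP-type domain, Htra1, a secreted protease, was higher in the differentiated library labelled Htt-null by 2.46, and Crim1 was higher by 1.21. With differentiation Htra1 gave -3.69 and -0.04 and Crim1 1.85 and 3.23 in cells labelled wild type and Htt-null. Igfbpl1 had 24346 reads in RA-DIFF labelled wild type and 14219 in RA-DIFF labelled Htt-null, a ratio of -0.59. It was above ESC by 4.04 and 3.70 in cells labelled wild type and Htt-null. Of 6 listed genes 3 passed the expression limit, and 2 of these were higher. The closest relative in name thus had a genotype ratio of the other sign than all 7 expressed members, although under the fold limit.

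Downstream of the receptor, the adaptor genes Irs1 (1.02) and Shc1 (0.84) were past the limits upward in the differentiated library labelled Htt-null. None of the 7 adaptor genes was past them downward. Ratios of 5 lay above 0, while Grb10 gave -0.61 and Grb2 -0.24. Irs1 was also above ESC by 3.46 and 4.17 in cells labelled wild type and Htt-null, Irs2 by 2.10 and 2.26 and Irs4 by 1.97 and 2.40, while the docking protein gene Gab1 was below ESC (-2.20 and -2.12). In the PI3K, AKT and mTOR arm, 3 of 21 genes were past the limits upward between the RA-DIFF libraries and none downward. They were the regulatory subunit gene Pik3r1 (0.97), the catalytic subunit gene Pik3cb (0.81) and the transcription factor gene Foxo1 (0.82). The median of these 21 was 0.06, and with 11.9% of all expressed genes higher and 9.35% lower, the higher count was near the background share. With differentiation in cells labelled wild type, 7 of the 21 were past the limits upward, among them Pik3r3 (4.59), Akt1 (2.62) and Gsk3b (2.16). In the same cells 5 were past them downward, among them the translation repressor gene Eif4ebp1 (-2.74), Pik3cb (-2.48) and Foxo1 (-2.23). The same arm had 6 genes higher and 5 lower in cells labelled Htt-null, where Pik3r1 gave 3.05. In cells labelled wild type these counts were at the shares of all expressed genes, 34% higher and 26.2% lower, and in cells labelled Htt-null they stood beside 34.4% and 24.9%.

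The IGF2 mRNA-binding protein genes share a name but not a protein family with the IGFBPs. Of the 3, Igf2bp1 was lower in the differentiated library labelled Htt-null (-0.93), and Igf2bp2 and Igf2bp3 gave -0.22 and -0.41.

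Genes of like pattern were sought by the distance between log2 CPM values centred on each gene's mean, over 4 libraries and 13931 expressed coding genes. Nearest to Igf1 were Cdh20 (distance 0.517), Slc6a11 (0.685) and Pcdh7 (0.761), and no gene lay within 0.5. Nearest to Igf1r were Ggcx (0.0960), 1190002N15Rik (0.104) and Usp51 (0.126), but 419 genes lay within 0.5 of it. With 4 libraries such likeness is a description of few points.

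The small RNA libraries offered another readout. The study lists 3 miRNAs with a member as target, miR-29b-3p and miR-329-3p for Igf1 and miR-377-3p for Igfbp3, and chose them for opposite patterns in these same samples, so their direction is not independent evidence. Their mature sequences from RefSeq on GRCm38.p6 are shown with the seed, bases 2 to 8, in capitals, because the seed defines the site sought in the targets. All 3 seeds differ.
miR-29b-3p: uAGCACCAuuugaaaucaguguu
miR-329-3p: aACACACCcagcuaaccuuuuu
miR-377-3p: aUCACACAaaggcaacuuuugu
miR-29b-3p is encoded at 2 places, chromosome 1 from 195037091 to 195037113 on the plus strand and chromosome 6 from 31063025 to 31063047 on the minus strand, and its reads cannot be assigned to either. Genes for miR-329-3p and miR-377-3p lie on chromosome 12, from 109713541 to 109713562 and from 109740553 to 109740574 on the plus strand.

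The longest annotated 3′ UTR of Igf1, with 6308 bases, holds 2 matches to the seed of miR-29b-3p and 1 to that of miR-329-3p, and the 3′ UTR of Igfbp3, with 1435 bases, holds 1 match to that of miR-377-3p. Over 21022 genes, whose 3′ UTRs had a median of 961 bases, 13.1%, 13.9% and 18.5% held a match to the seeds of miR-29b-3p, miR-329-3p and miR-377-3p. The matches are printed below in capitals with flanking bases, from GENCODE vM21 transcripts, at chr10:87931659-87931682, chr10:87934293-87934316 and chr10:87931460-87931483 on the plus strand and chr11:7207382-7207405 on the minus strand. That in Igfbp3 sits in a run of TG repeats. A match is a description and not a shown site of action.
Igf1 for miR-29b-3p: tttttagtacaaTGGTGCTatttt
Igf1 for miR-29b-3p, second match: gctacgccaatgTGGTGCTattgt
Igf1 for miR-329-3p: caatcatttttaGGTGTGTgtttg
Igfbp3 for miR-377-3p: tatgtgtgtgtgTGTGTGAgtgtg

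**Figure D4:**
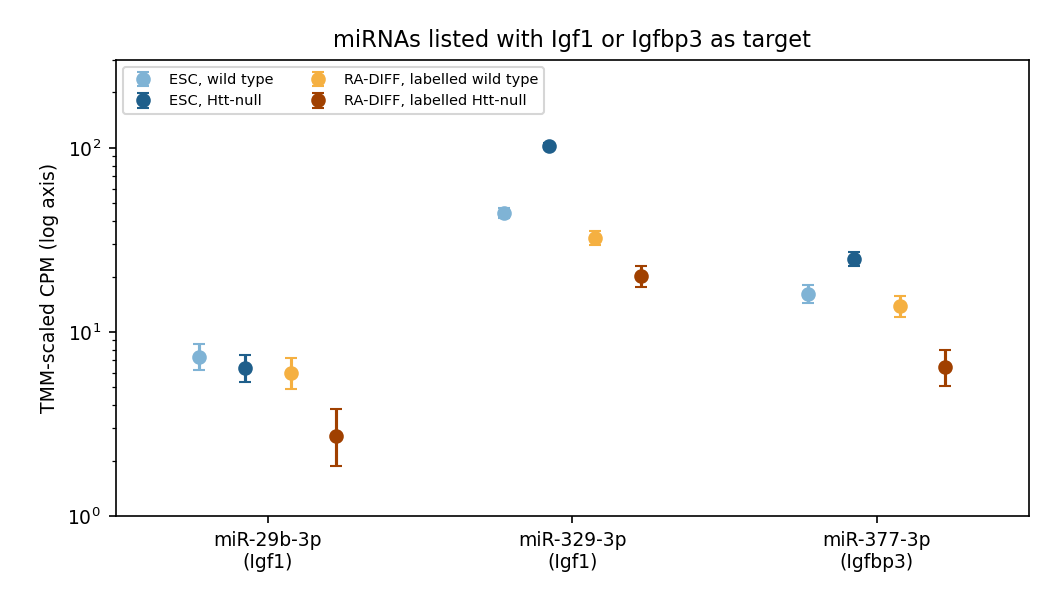
Level of the 3 miRNAs in the 4 small RNA libraries, as TMM-scaled CPM on a log axis, with the listed target gene in brackets. Points are single libraries and bars are exact Poisson 95% intervals of the count. For all 3 the differentiated library labelled Htt-null is the lowest point.

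miR-29b-3p had 148 reads in wild-type ESC, 140 in Htt-null ESC, 107 in the differentiated library labelled wild type and 33 in the one labelled Htt-null, or 7.34, 6.37, 5.98 and 2.72 CPM. miR-329-3p had 891, 2248, 580 and 243 reads in the same order, or 44.2, 102, 32.4 and 20.0 CPM. miR-377-3p had 323, 548, 246 and 78 reads, or 16.0, 24.9, 13.7 and 6.43 CPM. All 3 were thus lowest in the small RNA library of RA-DIFF labelled Htt-null. Igf1 and Igfbp3 were highest in the RNA-seq library of that label, a separate library matched by label only. The log2 ratio of the small RNA library labelled Htt-null over that labelled wild type, both RA-DIFF, was -1.14 (-1.75 to -0.56) for miR-29b-3p. It was -0.69 (-0.92 to -0.48) for miR-329-3p and -1.10 (-1.48 to -0.72) for miR-377-3p. With library size alone these ratios were -1.62, -1.18 and -1.58, which puts that of miR-329-3p past 0.75 in size, and the levels of miR-29b-3p were 11.5, 11.7, 4.17 and 1.36 CPM. In ESC, miR-329-3p was higher in Htt-null cells by 1.21 (1.10 to 1.32) and miR-377-3p by 0.64 (0.44 to 0.84), and miR-29b-3p gave -0.21 (-0.55 to 0.14), a value that was 0.03 with library size alone. The study classes these miRNAs as lowered by differentiation with an opposite effect of Htt loss, whereas under the deposited labels each was lower in RA-DIFF labelled Htt-null, so the labels of the small RNA libraries are in doubt too. The study's values per small RNA library were not used here.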

How the data were processed

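Total RNA from the 4 conditions was sequenced by the authors as poly-A-plus, dUTP strand-specific 50 bp paired-end libraries and as small RNA libraries, 1 library of each kind per condition. Per the labels and the study's methods, the authors aligned RNA-seq reads to GRCm38.p4 with TopHat2 2.0.14 and used HTSeq 0.6.1 to count them over Gencode genes, and trimmed small RNA reads with cutadapt 1.3 and mapped them to miRBase with BWA 0.7.5a-r418. The deposited values are raw counts, not normalized and not pooled.

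TMM factors were computed with edgeR 4.0.16 in R 4.3.3 over the 4 libraries of an assay, and other steps used Python 3.11.15, pandas 2.3.3, numpy 2.4.6, scipy 1.17.1 and matplotlib 3.10.9. With 1 library per condition no dispersion can be estimated. A gene was past the limits at an absolute log2 ratio above 0.75 and a mean log2 CPM above 0, and edgeR's exact test at assumed dispersions was an alternative only, so no p-value is given. Log2 ratios carry exact binomial intervals and levels exact Poisson intervals at the 95% level. Other alternatives were library size alone, median-of-ratios factors, no expression limit, a fold limit of 1, a prior count of 2 and exchanged RA-DIFF labels. In simulated libraries with 200 changed genes, the RA-DIFF genotype step recovered 200 among 15485 genes and called 9 unchanged ones. The planted changes all lay past the fold limit and the simulated spread was low, so the outcome checks the code only. It gives no error rate for real single libraries.

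The text names all 9 members, the genes of 6 other IGF pathway lists that were past the limits between the RA-DIFF libraries or differed by more than 2 (log2) with differentiation, a few others from these lists, and 3 genes of like pattern each for Igf1 and Igf1r. Marker lists cover fibroblast and mesenchyme, neuron, neural progenitor, endothelium, primitive and visceral endoderm, and pluripotent cells. The members and lists were chosen with earlier results of these data known. Exon lengths are from GENCODE vM21 on GRCm38, cut to the deposited gene bounds, and promoter and miRNA sequences from RefSeq on GRCm38.p6, which held all 9 members.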

Additional observations from a re-analysis of the deposited data

Results flagged for a closer look

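For 5 members the difference between Htt-null and wild type had opposite signs in ESC and in RA-DIFF as labelled, with counting intervals that exclude 0 at both stages. The log2 ratio in RA-DIFF minus that in ESC was 4.60 for Igf1, 1.12 for Igf1r, 1.49 for Igfbp2, 1.62 for Igfbp4 and 3.08 for Igfbp7. Each sign rests on 1 library against 1, and the difference between the stages was not tested. The share of all expressed genes that meet the same rule was not determined. The value of Igf1 rests on 20 reads in ESC, and that of Igfbp2 on an ESC ratio of -0.08. With the RA-DIFF labels exchanged, all 5 ratios would be negative at both stages.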

How the results depend on the processing

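No paired analysis was possible because each condition has 1 library, and for the same reason no library could be left out. Among the 33 log2 ratios of the members, the largest shift was 0.07 with library size alone and 0.05 with median-of-ratios factors, the latter with a change of sign in 2 ratios near 0. A prior count of 2 moved the ratio of Igf1 from 10.53 to 9.75 with differentiation in cells labelled Htt-null and from -2.76 to -2.12 between genotypes in ESC. With differentiation in cells labelled wild type, 2 members were higher under an exact test at a dispersion of 0.1 (4 between the RA-DIFF libraries), and 2 were lower with median-of-ratios factors. Shares of all genes were not determined under these alternatives. Without the expression limit 1 member, Igfbp1, was lower between the RA-DIFF libraries. With the RA-DIFF labels exchanged, 5 members were higher and 1 lower with differentiation in wild-type cells, 3 members were higher and 1 lower with differentiation in Htt-null cells, and between the RA-DIFF libraries 0 were higher and 6 lower, with log2 ratios of -1.84 for Igf1, -0.88 for Igf1r, -1.41 for Igfbp2, -3.93 for Igfbp3, -1.04 for Igfbp4 and -2.66 for Igfbp7; the ratio of Igfbp2 with differentiation in Htt-null cells became -0.62. The small RNA levels depended on the scaling. With library size alone miR-29b-3p stood at 11.5, 11.7, 4.17 and 1.36 CPM in wild-type ESC, Htt-null ESC and RA-DIFF labelled wild type and Htt-null, miR-329-3p at 69.1, 188, 22.6 and 10.004 CPM and miR-377-3p at 25.1, 45.8, 9.59 and 3.21 CPM. For Igf1 in ESC, Igfbp1 and Igfbp6 the counts set the precision.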
